A study of Drosophila ananassae with 22 samples.

Results

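Lipid storage and lipid transport were followed through *D. ananassae* embryogenesis with 7 genes, taken from the gene expression table of this species by their *D. melanogaster* identifiers. They were the lipid carriers *apoLpp* (FBgn0087002), *NLaz* (FBgn0053126) and *GLaz* (FBgn0033799), the lipid droplet proteins *Lsd-1* (FBgn0039114), *Lsd-2* (FBgn0030608) and *Jabba* (FBgn0259682), and the lipase *bmm* (FBgn0036449). All 7 have a row among the 8758 genes of the table. Of them 6, all but *GLaz*, reached 10 RPM (reads scaled to a total for each library) in a collection, as did 7207 genes in all. The identifiers are those of *D. melanogaster* orthologs, and the roles given below are known from that species.

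An insect egg is laid with a store of neutral lipid packed in lipid droplets, whose surface carries proteins of the perilipin family and others that control access to the store. Lipases on the droplet release fatty acids from triglyceride, and lipid then moves between tissues through the hemolymph on lipophorin particles, built on the protein that *apoLpp* encodes. Lipocalins such as the Lazarillo proteins, related to the apolipoprotein D of vertebrates, carry small hydrophobic molecules. In *D. melanogaster* eggs, droplets also hold histones, which Jabba anchors to the droplet surface.

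The samples were whole staged embryos of the *D. ananassae* strain In(3R)A, from which the reference genome comes, laid in population cages by untreated flies and collected in windows of 1 hr from 0-1 hr to 21-22 hr. Each of the 22 time points is 1 RAMPAGE library, an assay that sequences complementary DNAs from the capped 5′ end, so that each read marks a transcription start site (TSS). The 7-8 hr library had only 600 reads behind its RPM values and none from the 7 genes. There 3 reads would amount to 5000 RPM, and this library was left out of all values below unless it is named. Since each transcript is read once at its start, RPM does not grow with transcript length. Sums, shares and ratios of different genes also assume that their transcripts were captured and attributed equally well, which was not tested.

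In the other 21 libraries 1 read was worth 0.0794 to 0.825 RPM. The total behind RPM, worked out from this value, was 1211764 to 12595472 reads, with a median of 4522285. A gene with no read was set against a floor, the value of 3 reads, which was 0.238 to 2.48 RPM. Exact Poisson intervals (95%) are given for levels and cover counting error only. For a gene with no read their upper end lies above the floor (0.439 RPM against 0.357 RPM at 0-1 hr). Reads in gene rows made up 59.1% to 86.7% of the total behind RPM, with the lowest shares from 16-17 hr on. Markers of fat body, hemocytes, glia and other cell types were not analysed here, because the identifiers of the table could not be paired with gene names. In whole embryos, a change in the number of cells that express a gene and a change in RNA per cell cannot be told apart.

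The 7 genes differed in when they were expressed. *Jabba* and *Lsd-2* were highest in the first collections, *bmm* varied least, *Lsd-1* was highest at 9-10 hr, *apoLpp* at 13-14 hr and *NLaz* at 21-22 hr, while *GLaz* stayed near the limit of detection. The summed level of the 7 genes was 848 RPM at 0-1 hr, 136 RPM at 4-5 hr and 1072 RPM at 13-14 hr. It was 237 RPM at 17-18 hr and 635 RPM at 21-22 hr. Comparisons of these sums between early and late collections depend on the scaling. Under TMM scaling, described below, RPM is divided by 1.52 at 0-1 hr, 0.555 at 17-18 hr and 0.824 at 21-22 hr. The makeup of the sum changed along with its level. At 0-1 hr *Lsd-2* made up 53.0% of the sum, *Jabba* 41.9% and *apoLpp* 1.01%. From 4-5 hr on *apoLpp* was the largest contributor in every collection, with a highest share of 79.0% at 13-14 hr. *NLaz* reached 23.5% of the sum at 20-21 hr.

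**Figure D1:**
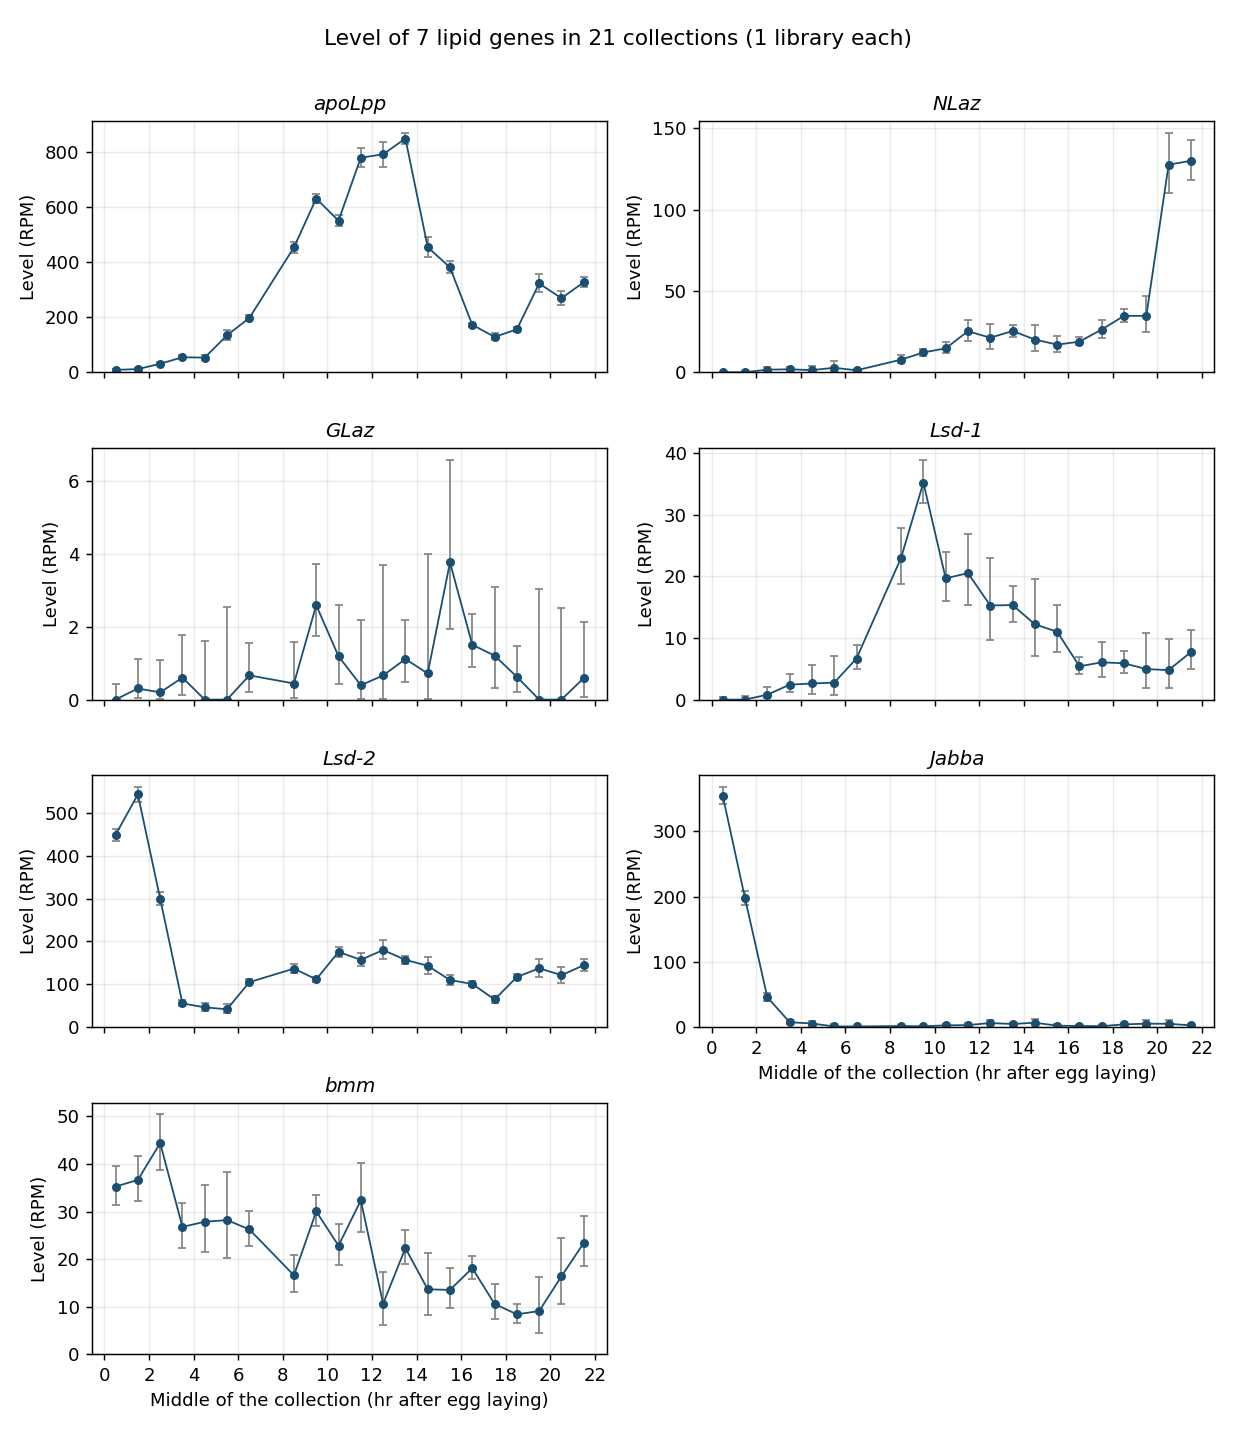
Level of each gene in RPM against the middle of the collection in hr after egg laying, 1 library per point, with exact Poisson intervals (95%) as bars and a linear axis from 0 in each panel. *Jabba* and *Lsd-2* are highest before 3 hr, *Lsd-1* at 9-10 hr (35.2 RPM), *apoLpp* at 13-14 hr (847 RPM) and *NLaz* in the last 2 collections (128 and 130 RPM).

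**Figure D2:**
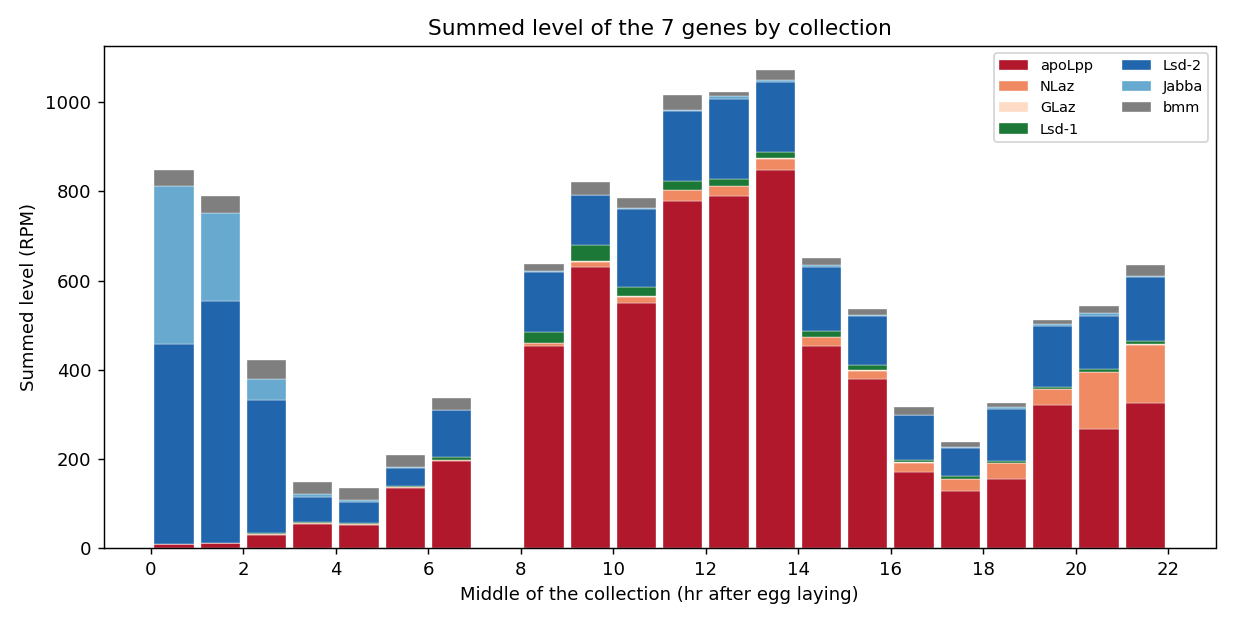
Summed level of the 7 genes in RPM against the middle of the collection in hr after egg laying, with each bar divided by gene. In RPM, without TMM scaling, the sum has a first high at 0-1 hr (848 RPM), mostly *Lsd-2* and *Jabba*. A second is at 13-14 hr (1072 RPM), mostly *apoLpp*. The gap at 7-8 hr is the library that was left out.

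Change with time was tested by limma with a natural spline of 4 degrees of freedom on log2(RPM + 1), over all genes that reached 10 RPM. All 6 genes tested were called at an adjusted p of 0.05, as were 93.2% of the 7207 genes, so that the count of 6 does not set these genes apart. To locate the changes, 7 windows of 3 collections were compared, each with the window before it, and the last window with the first. The 3 collections of a window are neighbouring ages and not replicates, so that p-values are set against the spread between these ages, and change inside a window counts as spread. That spread is pooled over all 7 windows, so that a gene has the same SE in every contrast. The study set class thresholds for single *D. melanogaster* promoters, and they were applied here to *D. ananassae* gene rows. By these thresholds, 4 of the 6 genes (*NLaz*, *apoLpp*, *Lsd-1* and *Jabba*) had at least 60% of their expression within 8 hr. They were classed as developmentally regulated, a class that held 44.7% of all genes tested. Spans of 8 hr that include 7-8 hr lack that collection. None of the 6 varied by less than 5-fold, the class of housekeeping genes, which held 12.6% of all genes tested.

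RPM also depends on what the rest of the library holds. Over all 7207 genes, the median change between windows was 0.01, 0.13, -0.05, -0.30, -0.44 and 0.25 on the log2(RPM + 1) scale for the 6 steps in order, and -0.68 for 19-22 hr against 0-3 hr. After TMM scaling, which sets libraries to each other by their shared genes, those medians were 0.16, 0.11, -0.03, -0.02, 0.02, -0.07 and -0.07. The TMM factors come from these same 7207 genes, so that small medians follow from the method. It takes most genes as unchanged, while 93.2% of them were called for change with time. Which scaling is closer to the amounts of RNA was not tested. Where TMM scaling ended a call, its value stands beside that in RPM below.

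Among the carriers, *apoLpp* encodes the apolipophorin precursor, the scaffold of the main hemolymph lipoprotein. Its level was 8.57, 11.5, 30.8, 54.3, 53.1, 134 and 197 RPM in the collections from 0-1 hr to 6-7 hr. It was 453, 630, 549, 778, 790 and 847 RPM from 8-9 hr to 13-14 hr, and 453, 380, 172, 128, 155, 322, 268 and 326 RPM from 14-15 hr to 21-22 hr. The gene thus had a broad high between 8 hr and 16 hr, which held 72.4% of its expression, a low at 17-18 hr and a second, smaller high at the end. At 13-14 hr it was in 141st place among all genes, with 98.4% of them lower. The highest collection was 98.9-fold above the lowest (counting interval 78.4 to 127), and the interval at 13-14 hr (826 to 869 RPM) overlapped that at 12-13 hr (746 to 836 RPM).

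*apoLpp* was called at 3 of the 6 steps. It averaged 80.5 ± 46.4 RPM at 3-6 hr and 16.9 ± 12.1 RPM at 0-3 hr (SD, n = 3 collections each), a change of 2.25 ± 0.45 on the log2(RPM + 1) scale (SE, limma, adjusted p = 0.000674). It averaged 426 ± 218 RPM at 6-10 hr and 80.5 ± 46.4 RPM at 3-6 hr, a change of 2.38 ± 0.45 (limma, adjusted p = 0.00455). No collection of the later window overlapped the earlier one at either step. Both calls held under all 6 alternatives without the 7-8 hr library and with each collection of either window left out.

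The level of *apoLpp* fell to 152 ± 22.2 RPM at 16-19 hr, against 560 ± 251 RPM at 13-16 hr, a change of -1.80 ± 0.45 (limma, adjusted p = 0.0168). This step depended on the scaling: it was -1.28 after TMM scaling (limma, adjusted p = 0.0862) and -1.31 with edgeR on the recovered reads (adjusted p = 0.130). The call was also lost without the 13-14 hr library (change -1.45, limma, adjusted p = 0.116), without 17-18 hr (-1.68, adjusted p = 0.0827) and without 18-19 hr (-1.82, adjusted p = 0.0534). The 3 levels of each window did not overlap. At 19-22 hr *apoLpp* averaged 305 ± 32.3 RPM, against 152 ± 22.2 RPM at 16-19 hr, a difference of 1.01 ± 0.45 that did not pass the test (limma, adjusted p = 0.246).

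*NLaz* encodes Neural Lazarillo, a secreted lipocalin that in *D. melanogaster* is known from subsets of neurons and from the fat body, where it responds to stress. It had no read at 0-1 hr and 1-2 hr. Its level was 1.58, 1.81, 1.31, 2.75 and 1.20 RPM from 2-3 hr to 6-7 hr, then 7.74, 12.2, 14.7, 25.3, 21.2 and 25.4 RPM from 8-9 hr to 13-14 hr. From 14-15 hr on it was 20.1, 17.0, 18.8, 26.3, 34.7, 34.7, 128 and 130 RPM. In RPM the profile thus had a plateau between 11 hr and 18 hr. TMM scaling divides RPM by 1.18 at 11-12 hr and by 0.555 at 17-18 hr, so that the plateau holds in RPM only. A jump followed between 19-20 hr (interval 25.0 to 46.9 RPM) and 20-21 hr (110 to 147 RPM).

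The highest level of *NLaz* was 364-fold above the 3-read floor of the 0-1 hr library. With 130 RPM at 21-22 hr it was above 89.8% of all genes, and in the 2 collections without a read the floor was 0.357 RPM and 0.458 RPM. Of its expression, 78.0% fell between 14 hr and 22 hr.

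*NLaz* passed the test at 1 step. At 3-6 hr against 0-3 hr it differed by 1.08 ± 0.57 (limma, adjusted p = 0.164), and this step passed only with a pseudocount of 0.1 RPM (2.94, adjusted p = 0.0143). The step that passed was 10-13 hr against 6-10 hr, with 20.4 ± 5.33 RPM at 10-13 hr and 7.04 ± 5.52 RPM at 6-10 hr (SD, n = 3 collections each). The change was 1.73 ± 0.57 (SE, limma, adjusted p = 0.0411), with no overlap of the collections. It was 1.55 with edgeR (adjusted p = 0.158) and 2.00 with a pseudocount of 0.1 RPM (limma, adjusted p = 0.135), and neither passed. The call was lost without 6-7 hr (change 0.96, limma, adjusted p = 0.321), without 8-9 hr (1.96, adjusted p = 0.0512), without 11-12 hr (1.56, adjusted p = 0.125) and without 12-13 hr (1.68, adjusted p = 0.114). Without 6-7 hr the step before it, 6-10 hr against 3-6 hr, passed instead, with a change of 1.89 (limma, adjusted p = 0.0116) against 1.13 ± 0.57 with that library (adjusted p = 0.183).

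The late jump of *NLaz* fell inside the last window, where the 19-20 hr collection (34.7 RPM) was no higher than 18-19 hr (34.7 RPM). The mean was 97.4 ± 54.4 RPM at 19-22 hr and 26.6 ± 7.94 RPM at 16-19 hr, a change of 1.65 ± 0.57 that did not pass (limma, adjusted p = 0.124). It passed with a pseudocount of 5 RPM (1.53, adjusted p = 0.0299). Against 0-3 hr, where the mean was 0.526 ± 0.911 RPM, the last window was higher by 5.94 ± 0.57 on the log2(RPM + 1) scale (limma, adjusted p = 1.61e-08).

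*GLaz* encodes Glial Lazarillo, the related lipocalin named for its expression in glia. It had 101 reads over the 21 collections, no read in 5 of them, and a highest level of 3.77 RPM at 15-16 hr (12 reads, interval 1.95 to 6.59 RPM). The other collections ranged up to 2.60 RPM at 9-10 hr, and the median was 0.604 RPM. At these depths most neighbouring collections could not be told apart. *GLaz* was below the 10 RPM minimum and entered the test only when that filter was dropped, with an adjusted p of 0.0326 for change with time (limma spline, 90.6% of 8756 genes called). None of the 7 contrasts between windows passed for it in that fit.

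Of the droplet proteins, *Lsd-1* encodes perilipin 1, which sits on droplets of the fat body and governs lipolysis in *D. melanogaster*. It had no read at 0-1 hr and 1-2 hr, and was at 0.789, 2.41, 2.61, 2.75 and 6.66 RPM from 2-3 hr to 6-7 hr. It was at 22.997, 35.2, 19.7, 20.5, 15.3 and 15.3 RPM from 8-9 hr to 13-14 hr, and at 12.2, 11.0, 5.40, 6.04, 5.88, 4.95, 4.78 and 7.70 RPM from 14-15 hr to 21-22 hr. The counting interval at 9-10 hr (31.8 to 38.9 RPM) did not overlap those of its neighbours (18.8 to 27.9 RPM at 8-9 hr, 16.0 to 23.9 RPM at 10-11 hr). Each level comes from 1 library, and no test was made. The level at 9-10 hr was 98.6-fold above the 3-read floor of the 0-1 hr library.

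*Lsd-1* was called at the first 2 steps. It averaged 2.59 ± 0.169 RPM at 3-6 hr and 0.263 ± 0.456 RPM at 0-3 hr (SD, n = 3 collections each), a change of 1.56 ± 0.43 (SE, limma, adjusted p = 0.00787). This step rested on 22 reads at 3-6 hr and 4 reads at 0-3 hr, and with a pseudocount of 5 RPM it was 0.53 and did not pass (adjusted p = 0.200). At 6-10 hr it averaged 21.6 ± 14.3 RPM, against 2.59 ± 0.169 RPM at 3-6 hr, a change of 2.39 ± 0.43 (limma, adjusted p = 0.00280) that held under the same 6 alternatives. The level fell from 35.2 RPM at 9-10 hr to 19.7 RPM at 10-11 hr, and reached 5.40 RPM at 16-17 hr. At 16-19 hr it averaged 5.78 ± 0.336 RPM, against 12.9 ± 2.23 RPM at 13-16 hr, with no overlap of the collections. That change was -1.02 ± 0.43 and did not pass (limma, adjusted p = 0.121). After TMM scaling it was -0.57 (limma, adjusted p = 0.512). At 19-22 hr (5.81 ± 1.64 RPM) the gene was higher than at 0-3 hr by 2.46 ± 0.43 (limma, adjusted p = 3.61e-05).

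*Lsd-2* encodes perilipin 2, the other perilipin of flies, known from the droplets of the germline and early embryo as well as from the fat body. Its level was 449, 543, 299, 54.9, 45.7, 41.3 and 105 RPM from 0-1 hr to 6-7 hr. It was 136, 111, 175, 157, 180 and 157 RPM from 8-9 hr to 13-14 hr, and 143, 109, 100.4, 64.1, 117, 137, 121 and 144 RPM from 14-15 hr to 21-22 hr. *Lsd-2* thus had an early high, a low between 3 hr and 6 hr and an intermediate level afterwards. At 1-2 hr it was above 96.4% of all genes, and even at its lowest, 5-6 hr, above 69.2% of them. The highest collection was 13.2-fold above the lowest (counting interval 10.2 to 17.3).

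At 3-6 hr *Lsd-2* averaged 47.3 ± 6.98 RPM, against 431 ± 123 RPM at 0-3 hr (SD, n = 3 collections each), a change of -3.13 ± 0.27 (SE, limma, adjusted p = 1.81e-07). At 6-10 hr it averaged 117 ± 16.7 RPM, against 47.3 ± 6.98 RPM at 3-6 hr, a change of 1.29 ± 0.27 (limma, adjusted p = 0.00677). Both calls held under the 6 alternatives and with each collection left out, and the collections did not overlap. Of the 6 genes tested, *Lsd-2* alone was called in opposite directions at neighbouring steps. None of the 4 later steps was called for it, and its window means from 10-13 hr on lay between 93.7 RPM and 171 RPM. At 19-22 hr (134 ± 12.0 RPM) it was below 0-3 hr, with a change of -1.64 ± 0.27 (limma, adjusted p = 2.15e-05). That change was smaller after TMM scaling (-0.95, limma, adjusted p = 0.00195) and with edgeR (-0.97, adjusted p = 0.00225), and still passed. The change with time of *Lsd-2* was called with the spline of 4 degrees of freedom (limma, adjusted p = 1.54e-05) but not with 3 (adjusted p = 0.0539).

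*Jabba*, whose product anchors histones to lipid droplets in *D. melanogaster* embryos, had the sharpest early profile of the 7. Its level was 355, 197, 45.6, 7.24, 5.22, 0.688 and 0.666 RPM from 0-1 hr to 6-7 hr. From 8-9 hr to 21-22 hr it stayed between 0.896 RPM at 9-10 hr and 6.47 RPM at 14-15 hr. The first 8 hr, without the 7-8 hr collection, held 93.2% of its expression. The level at 0-1 hr was 533-fold above that at 6-7 hr (5 reads, counting interval 228 to 1642). This fold was 296 without the 0-1 hr library, 214 with 1 RPM added and 309 as a running mean of 3 collections. At 0-1 hr *Jabba* was above 93.8% of all genes, and at 6-7 hr above 18.0% of them.

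At 3-6 hr *Jabba* averaged 4.38 ± 3.36 RPM, against 199 ± 155 RPM at 0-3 hr (SD, n = 3 collections each), a change of -5.07 ± 0.64 (SE, limma, adjusted p = 5.60e-06). The call held under all 6 alternatives and with each collection left out. At 6-10 hr (0.963 ± 0.335 RPM) it was lower than at 3-6 hr by -1.19 ± 0.64, which did not pass with limma (adjusted p = 0.211) and did with edgeR (change -2.42, adjusted p = 0.0292). No later step was called. At 19-22 hr it averaged 4.03 ± 1.44 RPM and was below 0-3 hr by -4.93 ± 0.64 (limma, adjusted p = 8.82e-07).

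*bmm* encodes Brummer, the main triglyceride lipase of the droplet surface and a relative of the adipose triglyceride lipase of mammals. Its level was 35.2, 36.7, 44.4, 26.8, 27.9, 28.2 and 26.2 RPM from 0-1 hr to 6-7 hr, and 16.6, 30.0, 22.8, 32.4, 10.6 and 22.3 RPM from 8-9 hr to 13-14 hr. From 14-15 hr on it was 13.7, 13.5, 18.1, 10.6, 8.39, 9.08, 16.4 and 23.4 RPM. The gene was read in every collection, with its highest level at 2-3 hr (interval 38.8 to 50.6 RPM, overlapping 32.2 to 41.6 RPM at 1-2 hr) and its lowest at 18-19 hr. The highest over the lowest was 5.29-fold (counting interval 4.01 to 7.06), just above the 5-fold limit of the housekeeping class. It fell below that limit after TMM scaling (4.15-fold), with 1 RPM added (4.83-fold) and as a running mean of 3 collections (4.15-fold).

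None of the 6 steps was called for *bmm* (limma, lowest adjusted p = 0.414). At 19-22 hr it averaged 16.3 ± 7.16 RPM, against 38.8 ± 4.92 RPM at 0-3 hr (SD, n = 3 collections each), a change of -1.29 ± 0.40 (SE, limma, adjusted p = 0.00713). That call rested on the scaling: the change was -0.62 after TMM scaling (limma, adjusted p = 0.172) and -0.54 with edgeR (adjusted p = 0.247), and it did not pass without 19-20 hr (-0.94, limma, adjusted p = 0.0563). Change with time was likewise called in RPM (limma spline, adjusted p = 0.000494) and not after TMM scaling (adjusted p = 0.219) or by edgeR (adjusted p = 0.261).

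By step, the 6 genes tested compare as follows with all 7207 genes. At 3-6 hr against 0-3 hr 2 genes rose (*apoLpp*, *Lsd-1*) and 2 fell (*Lsd-2*, *Jabba*), where 31.4% of all genes were called, 15.0% higher and 16.4% lower. At 6-10 hr against 3-6 hr 3 rose (*apoLpp*, *Lsd-1*, *Lsd-2*), where 11.3% of all genes were called higher and 4.05% lower. Only *NLaz* rose at 10-13 hr against 6-10 hr, where 12.5% of all genes were called higher and 5.68% lower.

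At 13-16 hr against 10-13 hr none of the 6 was called, where 5.92% of all genes were called, 2.00% higher and 3.93% lower. At 16-19 hr against 13-16 hr *apoLpp* fell, where 2.10% of all genes were called higher and 8.66% lower. At 19-22 hr against 16-19 hr none of the 6 was called, where 2.94% of all genes were called, 1.87% higher and 1.07% lower. With no adjustment of the limma p-values, *NLaz* and *apoLpp* passed 0.05 at this last step, as did 17.8% of all genes, and none of the 6 did at the step of 13-16 hr, where 25.1% of all genes did. By edgeR none of the 6 was called at either step, where it called 0.971% of all genes at 19-22 hr and 1.21% at 13-16 hr.

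For 19-22 hr against 0-3 hr all 6 genes were called, 3 higher (*NLaz*, *apoLpp*, *Lsd-1*) and 3 lower (*Lsd-2*, *bmm*, *Jabba*), where 71.2% of all genes were called, 26.0% higher and 45.2% lower. *apoLpp* changed by 4.29 ± 0.45 (limma, adjusted p = 5.89e-08). After TMM scaling the changes were 6.25 for *NLaz*, 4.94 for *apoLpp*, 2.72 for *Lsd-1*, -0.95 for *Lsd-2*, -0.62 for *bmm* and -4.30 for *Jabba*. After TMM scaling 51.0% of the genes called in this contrast were higher, against 36.5% in RPM. The same share was 61.3% after TMM scaling and 19.5% in RPM for 16-19 hr against 13-16 hr, 69.2% and 33.7% for 13-16 hr against 10-13 hr, and 27.4% and 63.7% for 19-22 hr against 16-19 hr.

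**Figure D3:**
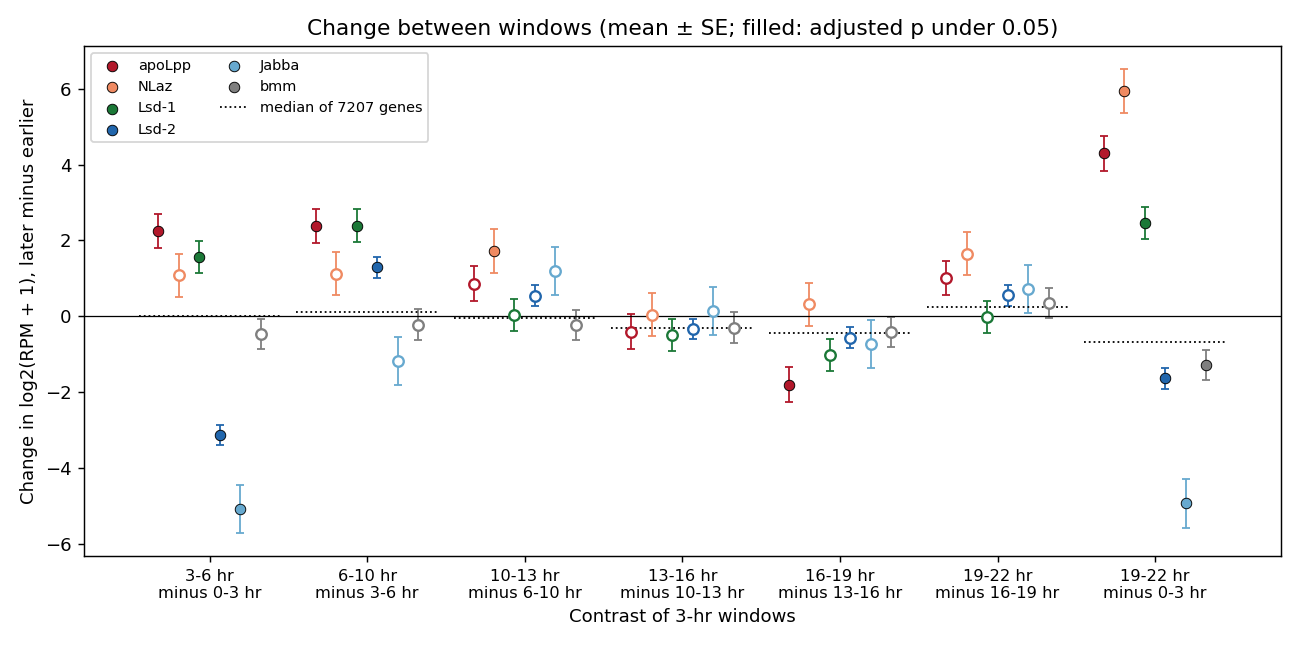
Change in log2(RPM + 1), later minus earlier window, for the 6 genes that reached 10 RPM in each of 7 contrasts. Points are differences of window means over 3 collections each. Bars are the SE of the limma fit, with the spread of a gene pooled over all 7 windows. Filled points had an adjusted p under 0.05 (limma) and dotted lines mark the median of 7207 genes. The widest changes between neighbouring windows are those of *Jabba* (-5.07) and *Lsd-2* (-3.13) at 3-6 hr against 0-3 hr.

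The ratio of the 2 perilipin genes changed over the series, and *Lsd-2* had more reads than *Lsd-1* in all 21 collections. At 0-1 hr *Lsd-2* had 3772 reads and *Lsd-1* none. *Lsd-2* was 15.7-fold higher than *Lsd-1* at 6-7 hr (counting interval 11.8 to 21.3), and 3.16-fold higher at 9-10 hr (2.82 to 3.55), the lowest ratio of the series. The ratio was 18.7 (12.6 to 29.0) at 21-22 hr. *Lsd-2* over *Jabba* was 1.27 (1.21 to 1.33) at 0-1 hr, 2.75 (2.58 to 2.94) at 1-2 hr and 6.57 (5.72 to 7.58) at 2-3 hr. These intervals did not overlap, but each ratio comes from 1 library and no test was made. At 9-10 hr the ratio was 124 (67.3 to 259).

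Across the 21 collections, *apoLpp* and *Lsd-1* had the most alike profiles, by r and by rho, of the 21 pairs among the 7 genes (Pearson's r = 0.947, Spearman's rho = 0.911 on log2(RPM + 1)). By r, *Lsd-2* and *Jabba* followed (r = 0.755, rho = 0.568), then *NLaz* and *apoLpp* (r = 0.729, rho = 0.506). The order differed by rho, where *GLaz* and *Lsd-1* (rho = 0.599, r = 0.562) stood above both. The ranks of *GLaz* rest on 101 reads in all, with none in 5 collections. *apoLpp* and *Jabba* were the most opposed pair by r (r = -0.761, rho = -0.330). By rho it was *NLaz* and *bmm* (rho = -0.689, r = -0.624). These values describe series of neighbouring ages that share their libraries, so that the collections are not independent.

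Among the 7207 genes, those with a Pearson's r of at least 0.9 to a given gene numbered 350 for *NLaz*, 111 for *apoLpp*, 89 for *Lsd-1*, 47 for *Jabba*, 5 for *Lsd-2* and none for *bmm*. Among the genes listed, *NLaz* thus had the highest count at this cut, and *Lsd-2* and *bmm* had the lowest. Whether these counts are high or low for a gene of the table was not tested. The highest r of *bmm* was 0.8999, just under the cut. *bmm* varied by 5.29-fold and had 11 reads at 19-20 hr, and how far range and depth lowered its r was not tested. The highest r was 0.974 for *NLaz* (FBgn0025643, highest at 21-22 hr), 0.971 for *apoLpp* (highest at 13-14 hr), 0.970 for *Lsd-1*, 0.968 for *Jabba* (FBgn0087040, highest at 0-1 hr), 0.931 for *Lsd-2* and 0.90 for *bmm*. The files do not pair these identifiers with gene names.

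The start sites behind each gene row were traced through the transcription start site clusters (TSCs) of the peak list, in coordinates of FlyBase release 1.3 of the *D. ananassae* genome. Exon and intron positions were not analysed here. For 5 genes the row equalled the sum of the TSCs of 1 *D. ananassae* gene identifier in reads at every collection. For *apoLpp* and *Jabba* the row exceeded that sum by 193 reads (0.622%) and 33 reads (0.699%), and they were tied to it by a rule added after the values were seen. Of all genes with an attributed TSC, 38.9% had more than 1.

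*NLaz* (FBgn0091750) and *Lsd-1* (FBgn0093283) had a single TSC each. That of *NLaz* spans 38 bp at scaffold_12916:4823555-4823592 on the minus strand, and that of *Lsd-1* spans 104 bp at scaffold_13340:19940792-19940895, also on the minus strand. All 1907 and 1083 reads of these 2 rows began there. Each row equals its single TSC, so that this share is fixed by how the row is built. Use of another promoter at some ages was therefore not tested. At 0-3 hr the rows held only 8 reads of *NLaz* and 4 reads of *Lsd-1*.

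*bmm* (FBgn0102172) had 99.2% of its 2485 reads at a TSC of 83 bp at scaffold_13337:4323139-4323221 on the plus strand, and 20 reads at a second TSC 7552 bp downstream. *Jabba* (FBgn0090782) had 95.9% at a TSC of 58 bp at scaffold_13266:17715495-17715552 on the plus strand, with 167 reads 2485 bp downstream and 26 reads 3033 bp downstream. The last of these intervals is also listed under another gene identifier. *GLaz* (FBgn0089018) divided its 101 reads between a TSC of 22 bp at scaffold_13266:6519431-6519452 on the minus strand (54 reads, 53.5%, Wilson interval 43.8% to 62.9%) and a TSC of 76 bp that starts 3330 bp downstream (47 reads). Neither TSC of *GLaz* could be called the main one at this depth.

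*apoLpp* (FBgn0099821) had 12 TSCs, with 95.7% of the reads at a TSC of 288 bp at scaffold_13099:361064-361351 on the plus strand. One of the other TSCs lay upstream of it (33 reads) and 10 lay between 1653 bp and 14211 bp downstream, the largest of them 5620 bp away with 671 reads (2.18%). Reads outside the main TSC made up 1.41% to 7.44% of the gene's reads in a collection.

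*Lsd-2* (FBgn0098064) had 95.7% of its reads at a TSC of 209 bp at scaffold_13117:1215134-1215342 on the minus strand, 193 reads at a TSC 2094 bp downstream and 596 reads at one 4484 bp downstream. The share outside the main TSC was 1.78%, 4.53% and 2.64% in the 3 collections of 0-3 hr, and 2.20%, 1.90%, 1.67% and 2.17% from 3-4 hr to 6-7 hr. It was 7.79%, 10.6%, 7.70% and 14.1% from 8-9 hr to 11-12 hr and then lay between 1.89% and 5.65%. The 4 collections from 8-9 hr to 11-12 hr were above all others, and the Wilson interval at 11-12 hr (11.0% to 17.9%) did not overlap that at 1-2 hr (3.89% to 5.26%). For *apoLpp* that share was 3.18%, 5.81%, 5.32% and 6.46% in the same collections, and its highest was 7.44% at 4-5 hr. At 12-13 hr both genes were lower than at 11-12 hr (2.03% for *apoLpp*, 4.43% for *Lsd-2*). Whether the shares moved with the library was not tested. Each value comes from 1 library, and no test was made. No collection had more than 14.1% of its *Lsd-2* reads outside the main TSC, so that both the early high and the later level of *Lsd-2* began mostly at the same TSC.

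**Figure D4:**
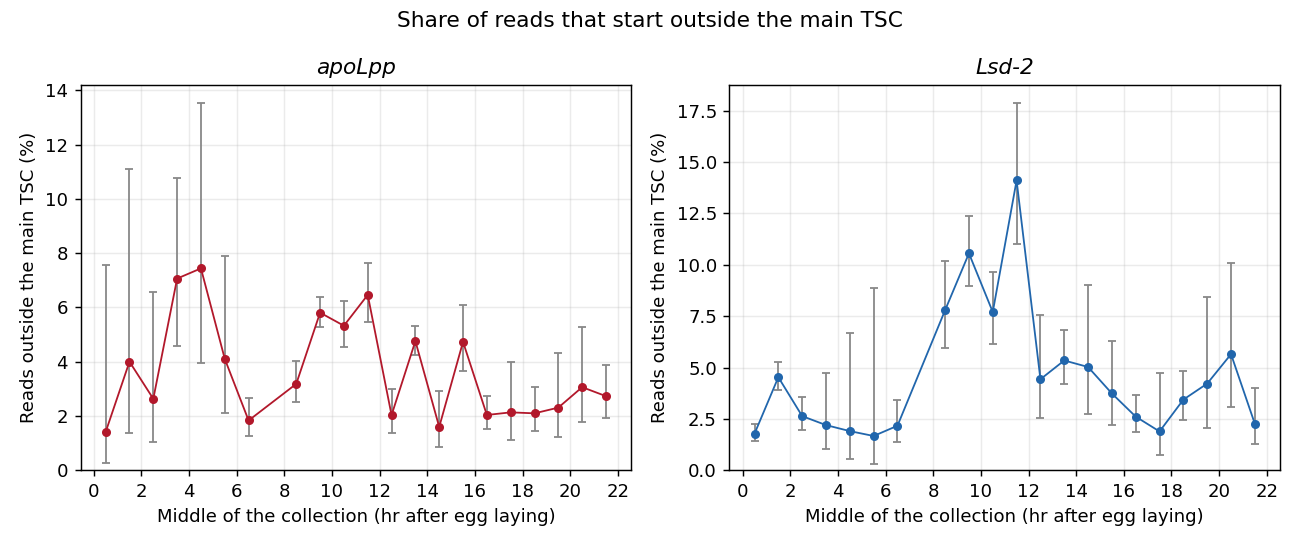
Share of the reads of *apoLpp* (left) and *Lsd-2* (right) that start outside the main TSC of the gene, in percent, against the middle of the collection in hr after egg laying, with Wilson intervals (95%) as bars and 1 library per point. For *Lsd-2* the 4 collections from 8-9 hr to 11-12 hr are highest, with 14.1% at 11-12 hr.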

How the data were processed

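The authors mapped RAMPAGE reads with STAR to the *D. ananassae* genome, called TSCs on the pooled series, attributed them to genes and deposited RPM values per gene, TSC and collection; the deposited peak list gives TSC positions. The deposited smoothed table was not used. RPM was divided by the value of 1 read per collection, and 100% of values were whole within 0.1 read.

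Genes reaching 10 RPM were tested with limma 3.58.1 on log2(RPM + 1) in R 4.3.3, by a spline fit against collection time (natural, 4 degrees of freedom) and by contrasts of 7 windows, with Benjamini-Hochberg adjustment over all 7207 genes at 0.05. Fold changes on this scale are understated for low genes. Since the files hold RPM, edgeR 4.0.16 (quasi-likelihood, TMM) on recovered reads served as an alternative; it called 4542 genes at 19-22 hr against 0-3 hr. Fits and read recovery were tested on simulated data. Python 3.11.15 with pandas 2.3.3, numpy 2.4.6, scipy 1.17.1 and matplotlib 3.10.9 was used for intervals and figures.

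The genes and lists were chosen with earlier results of these data known. All 7 genes are named. The contrast of the last with the first window, a minimum of 25 RPM for the window tests and the tie of *apoLpp* and *Jabba* to TSCs were added after the values were seen. Other lipid genes and cell type markers could not be matched to names and were not analysed here. Per-sample columns without a sample numbered 0.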

Additional observations from a re-analysis of the deposited data

How the results depend on the processing

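No paired analysis was possible because the labels give 1 library for each collection. The calls of *apoLpp*, *Lsd-2* and *Jabba* at 3-6 hr against 0-3 hr, of *apoLpp*, *Lsd-1* and *Lsd-2* at 6-10 hr against 3-6 hr, and of 5 genes, all but *bmm*, at 19-22 hr against 0-3 hr held under every alternative run without the 7-8 hr library. So did the change with time of *apoLpp*, *NLaz*, *Lsd-1* and *Jabba*. Ranked by Spearman's rho, at most 1 of the 3 most alike genes was kept for each of *apoLpp*, *NLaz*, *Lsd-2*, *Jabba* and *bmm*. Depth limits *GLaz* and the early values of *Lsd-1* and *NLaz*, and the cause of each change below was not tested.

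With the 7-8 hr library included, 3338 genes changed with time, against 6715 without it, and the window steps called 345, 76, 860, 60, 125 and 64 genes in order and 2338 at 19-22 hr against 0-3 hr, against 2262, 1104, 1313, 427, 775, 212 and 5129. Under that setting *Lsd-2* changed by -0.43 at 6-10 hr and *bmm* by 0.93 at 10-13 hr, both opposite in sign to the values without it. Of the 15 window calls for the 6 genes, 9 were lost: *apoLpp* at 3-6 hr, 6-10 hr and 16-19 hr, *Lsd-1* at 3-6 hr and 6-10 hr, *Lsd-2* at 3-6 hr, at 6-10 hr and at 19-22 hr against 0-3 hr, and *bmm* at 19-22 hr against 0-3 hr. Change with time was lost for *Lsd-2* (limma, adjusted p = 0.0670) and *bmm* (adjusted p = 0.479). With a pseudocount of 0.1 RPM, 821, 142 and 95 genes were called at 10-13 hr, 13-16 hr and 19-22 hr, each against the window before. With edgeR, 87, 319 and 70 were called at the last 3 steps.

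With 1 collection left out in turn, the counts ranged from 109 (without 9-10 hr) to 1822 (without 6-7 hr) at 6-10 hr, 302 (without 6-7 hr) to 1728 at 10-13 hr, 91 (without 10-11 hr) to 939 (without 13-14 hr) at 13-16 hr, 225 (without 17-18 hr) to 1025 at 16-19 hr and 57 (without 21-22 hr) to 306 at 19-22 hr. The same series turned the sign of values that were not called: *bmm* -0.39 to 0.023 at 6-10 hr, -0.56 to 0.20 at 10-13 hr and -0.73 to 0.036 at 13-16 hr, *Lsd-1* -0.61 to 0.51 at 10-13 hr and -0.21 to 0.088 at 19-22 hr, *NLaz* -0.16 to 0.21 and *Jabba* -0.17 to 0.52 at 13-16 hr. *Lsd-1* at 10-13 hr was -0.18 with edgeR and -0.014 with a pseudocount of 5 RPM, and *bmm* at 16-19 hr was 0.069 after TMM scaling and 0.11 with edgeR.

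The change at 19-22 hr against 0-3 hr ranged over the other alternatives from 4.03 to 8.37 for *NLaz* and from 1.03 to 5.29 for *Lsd-1*. The variation of *bmm* was 4.15-fold after TMM scaling and as a running mean, and 4.83-fold with 1 RPM added. The main TSC held 96.4% of reads for *Jabba*, 96.7% for *apoLpp* and 100% for *bmm* over TSCs of at least 100 reads, and 93.4% for *Jabba* and 96.3% for *apoLpp* as a mean of collections. The highest collection began at 0 hr for *Lsd-2*, 12 hr for *apoLpp* and 1 hr for *bmm* as a running mean, and at 20 hr for *NLaz* after TMM scaling. With the highest collection itself left out, it moved to a neighbour: start hours ranged 0 to 1 for *Jabba* and *Lsd-2*, 8 to 9 for *Lsd-1*, 20 to 21 for *NLaz*, 12 to 13 for *apoLpp* and 1 to 2 for *bmm*.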
